A study of Mus musculus with 6 samples.

Results

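Cytokines are secreted proteins through which cells signal to one another, chemokines are the small cytokines that direct cell migration, and both act through receptors on the surface of the responding cell. Here 171 of the 22690 probe sets of a mouse oligonucleotide array were taken, those that the platform annotation names for 1 gene alone and whose gene symbol marks a chemokine, a chemokine receptor, an interleukin or interleukin receptor, a ligand of the tumour necrosis factor (TNF) superfamily, or Csf1, Csf2, Csf3, Csf1r or Tnf. They cover 123 of the 12393 genes named in this way. The gp130 co-receptor gene Il6st was left out by the rule, and 8 further probe sets that share a member's symbol with other genes were not used. Because the choice was made by symbol, it takes in Il4i1, which encodes an amino acid oxidase, and Il1rapl2, a relative of the interleukin-1 receptors that acts at synapses.

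RNA came from 3 plates of A_212, a line made from adult mouse hypothalamus, and 3 plates of N_46, a line made from embryonic mouse hypothalamus. Both lines had been immortalised by overexpression of the SV40 T-antigen, both are described as expressing neuropeptide Y (Npy), and both were grown to 70% confluence in DMEM with 5% fetal bovine serum. Neither line received a cytokine or any other treatment that the labels name. Each age of origin is represented by 1 line, so age and any other difference between these lines cannot be told apart, and p-values measure the spread between plates. The deposited log2 values are centred, with a median of 0 over the 6 arrays for every probe set. They give differences between arrays and no level, so that a gene silent in both lines and a gene expressed equally in both look the same. Where the lines do not overlap, the centring makes the lowest value of one line the mirror image of the highest value of the other. Base 2 is inferred from the normalisation method and is not stated, and each fold rests on it. All differences are A_212 minus N_46, so that positive values are higher in A_212, with the standard error (SE) and Benjamini-Hochberg adjusted p of limma over 3 arrays per line. A gene is said to pass the test at an adjusted p under 0.05.

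As background, CC and CXC chemokines are named for the spacing of their first cysteines and bind G protein-coupled receptors, chiefly on leukocytes. Several interleukins of the interleukin-1 family, such as interleukin-1 and Il33, signal through a ligand-binding chain and the shared accessory chain Il1rap to NF-kB. Il18, of the same family, instead uses Il18r1 and Il18rap. Interleukins that use cytokine receptors of other classes signal mostly through JAK kinases and STAT factors. In the hypothalamus, glia, endothelium and some neurons make chemokines such as Ccl2, and inflammatory cytokines there are known to affect feeding and body temperature.

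As a check of the labels, Npy differed by -0.05 ± 0.08 (SE, adjusted p = 0.665 in limma), and of 21 neuronal markers 4 were higher in A_212, 4 were higher in N_46 and 13 did not pass, so that 38.1% passed where 39.2% of all genes did. Whether these markers were present or absent cannot be read from centred values. Correlations across genes between plates of the same line ran from 0.80 to 0.86 for A_212 and from 0.82 to 0.92 for N_46, over genes that are not independent replicates. A_212 replicate 3 stood apart for the member genes that did not pass the test. It was the highest of the 3 A_212 arrays for 72 of these 92 genes (78.3%), against 45.2% of all 7540 genes that did not pass. Among the 31 member genes that passed, it was the highest for 10.

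Of the 123 genes, 31 (25.2%) passed the test, where 39.2% of all genes tested did. Of the 123, 19 were higher in A_212 and 12 were higher in N_46. Over all 12393 genes, 2267 (18.3%) were higher in A_212 and 2586 (20.9%) were higher in N_46. A difference of at least 2-fold was found for 7 of the 123 that passed the test, 6 higher in A_212 and 1 higher in N_46. Of all 12393 genes, 723 (5.83%) reached that size and passed, 448 (3.61%) higher in A_212 and 275 (2.22%) higher in N_46. The 6 were Il15, Ccl7, Ccl2, Ccl27a, Il1rap and Il13ra1, and the 1 was Il33. In a bulk culture, fewer cells making a transcript and less of it per cell cannot be told apart. For 41 genes every plate of one line lay above every plate of the other, 20 with A_212 above and 21 with N_46 above, where 51.1% of all genes showed no overlap. Of the 171 probe sets taken singly, 44 passed, 28 higher in A_212 and 16 higher in N_46, where 35.9% of all probe sets did. The median difference was -0.08 for the members and -0.06 for all genes, and 91 members lay within 0.25 of 0. The number higher in N_46 depended on single arrays. It was 25 without A_212 replicate 3 and 7 without A_212 replicate 1 or without N_46 replicate 1, whereas the number higher in A_212 stayed between 18 and 20 when any 1 array was left out. Over all genes, 41.3% passed either way without A_212 replicate 3, 34.6% without A_212 replicate 1 and 37.6% without N_46 replicate 1.

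**Figure D1:**
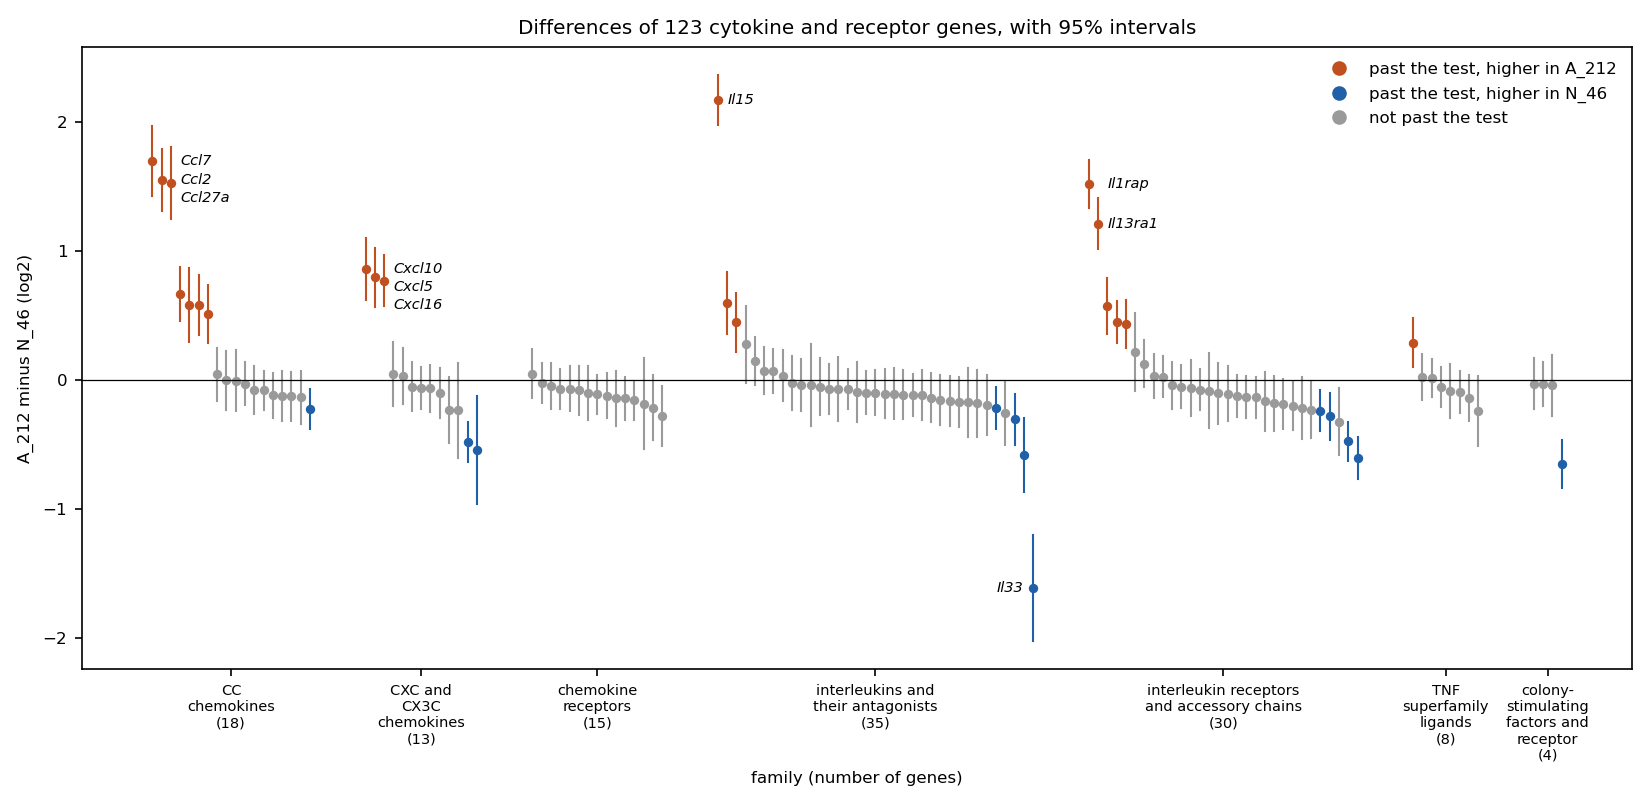
Difference between the lines (A_212 minus N_46, log2) of each of the 123 member genes, ranked within its family, with 95% intervals from limma over 3 arrays per line. Orange and blue points passed the test and grey points did not. Il15, at 2.17, and Il33, at -1.61, lie at the ends of the range, the largest chemokine differences lie above 1.5, and most other genes lie near 0.

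Promoters of the genes that differed were looked up in RefSeq, build GRCm38.p6, in windows of 250 bases before the annotated start. An entry matched 91 of the 123 members (109 windows) and 19 of the 31 genes past the test. Il15, Ccl7, Ccl2 and Ccl11 were among the genes without an entry. The windows of 4 genes are shown because they belong to a CXC and a CC chemokine higher in A_212, to the interleukin with the largest difference toward N_46 and to the colony-stimulating factor higher in N_46. Capitals mark matches on either strand to the NF-kB consensus, to the core of the interferon-stimulated response element (ISRE), to TGANTCA, a site for AP-1, or to the TATA box, TATAAA. Cxcl10 lies at chr5:92348890-92349139, Ccl9 at chr11:83578637-83578886 and Csf1 at chr3:107760470-107760719, all on the minus strand. Il33 has 2 annotated starts on the plus strand, at chr19:29924863-29925112 and chr19:29945540-29945789.
Cxcl10: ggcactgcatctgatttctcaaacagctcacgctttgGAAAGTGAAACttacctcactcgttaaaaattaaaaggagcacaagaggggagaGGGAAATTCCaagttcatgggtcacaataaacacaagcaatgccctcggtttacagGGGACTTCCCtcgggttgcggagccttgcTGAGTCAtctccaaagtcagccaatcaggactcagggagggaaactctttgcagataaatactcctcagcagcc
Ccl9: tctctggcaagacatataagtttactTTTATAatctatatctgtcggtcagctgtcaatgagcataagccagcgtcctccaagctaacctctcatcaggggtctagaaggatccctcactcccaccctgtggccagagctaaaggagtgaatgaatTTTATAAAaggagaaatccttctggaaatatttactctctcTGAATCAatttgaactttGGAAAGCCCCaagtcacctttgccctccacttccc
Il33, first start: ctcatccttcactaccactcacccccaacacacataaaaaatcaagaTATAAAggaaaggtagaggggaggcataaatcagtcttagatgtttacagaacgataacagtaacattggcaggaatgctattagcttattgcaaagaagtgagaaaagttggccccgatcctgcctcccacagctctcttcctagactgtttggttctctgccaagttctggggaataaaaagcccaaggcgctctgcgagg
Il33, second start: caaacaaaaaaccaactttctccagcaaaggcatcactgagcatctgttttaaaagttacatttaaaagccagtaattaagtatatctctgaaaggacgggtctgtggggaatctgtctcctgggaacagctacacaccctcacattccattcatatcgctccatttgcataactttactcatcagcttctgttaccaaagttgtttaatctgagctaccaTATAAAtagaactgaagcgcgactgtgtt
Csf1: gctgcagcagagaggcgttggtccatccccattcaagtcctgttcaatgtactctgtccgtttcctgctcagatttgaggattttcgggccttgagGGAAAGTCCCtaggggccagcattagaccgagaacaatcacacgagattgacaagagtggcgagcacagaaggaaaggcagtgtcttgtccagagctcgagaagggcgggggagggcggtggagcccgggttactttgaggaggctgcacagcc

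The Cxcl10 window holds the ISRE core 213 to 203 bases before the start, NF-kB matches at 159 to 150 and at 103 to 94, and an AP-1 match at 74 to 68. In the Ccl9 window, an NF-kB match lies 35 to 26 bases and an AP-1 match 53 to 47 bases before the start, and TATA letters occur at 224 to 219 and, on opposite strands and overlapping, at 94 to 89 and 92 to 87. The Csf1 window holds an NF-kB match at 154 to 145. Each Il33 window holds 1 TATA match, at 203 to 198 and at 29 to 24 bases before its start. Over all 32851 RefSeq windows of this length, 3.9% held the NF-kB consensus, 1.14% the ISRE core, 6.75% the AP-1 letters and 12.4% the TATA letters, and over the 109 windows of members these shares were 11%, 2.75%, 17.4% and 20.2%. The longer ISRE consensus occurred in 0 of the 109 windows and in 0.146% of all windows. Counted by gene, the NF-kB consensus occurred in 2 of 10 genes higher in A_212, 2 of 9 genes higher in N_46 and 8 of 72 genes that did not pass, and the AP-1 letters in 4 of 10, 0 of 9 and 15 of 72. The 2 of 10 with the NF-kB consensus are Cxcl10 and Ccl9, and Csf1 is 1 of the 2 of 9. The windows shown thus hold more of these matches than is typical of the genes that differed. The motifs were chosen with these windows in view, and a match describes the sequence alone.

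Of all genes for chemokine ligands, 13 of 31 passed the test (41.9%, against 39.2% of all genes), 10 of them higher in A_212. Among CC chemokines, 7 of 18 genes were higher in A_212, 1 was higher in N_46 and 10 did not pass. Ccl2, the main attractant of monocytes, had values of 0.99, 0.63 and 0.77 on the A_212 arrays and of -0.63, -0.69 and -0.93 on the N_46 arrays. All A_212 plates were above all N_46 plates, and the difference was 1.55 ± 0.11 (SE, 2.93-fold, adjusted p = 1.48e-06). Ccl7, a second monocyte attractant, stood at 1.03, 0.67 and 0.83 in A_212 and at -1.10, -0.79 and -0.67 in N_46. Its difference was 1.70 ± 0.12 (3.25-fold, adjusted p = 1.76e-06), the largest of any chemokine measured. Ccl27a, a chemokine of skin epithelium, had 1.10, 1.06 and 0.58 in A_212 and -0.60, -0.68 and -0.58 in N_46, with A_212 replicate 3 the lowest of its line. That gene differed by 1.53 ± 0.12 (2.89-fold, adjusted p = 4.45e-06). The mouse genome holds near-identical copies of Ccl27a that may share its probe set, so the value is uncertain as to the copy.

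The other 4 CC chemokines higher in A_212 differed by 1.43-fold to 1.59-fold. Ccl9, a macrophage inflammatory protein, had 0.24, 0.57 and 0.29 in A_212 and -0.37, -0.26 and -0.27 in N_46, a difference of 0.67 ± 0.09, and its probe sets differed by 0.57 and 0.77. Ccl11 (eotaxin), an attractant of eosinophils, had 0.07, 0.63 and 0.39 in A_212 and -0.26, -0.07 and -0.33 in N_46, a difference of 0.58 ± 0.13. For Ccl11 the lines came close to each other, at 0.07 for the lowest A_212 plate and -0.07 for the highest N_46 plate. Ccl25, which attracts thymocytes and gut lymphocytes, differed by 0.58 ± 0.11 and Ccl5 (RANTES), which attracts T cells, by 0.51 ± 0.10. In the limma fit their adjusted p-values, in the same order, were 0.000239, 0.00423, 0.0013 and 0.0022. Ccl28, a chemokine of mucosal epithelium, was the 1 CC chemokine higher in N_46, at -0.22 ± 0.07 (adjusted p = 0.0257), and it passed no longer when A_212 replicate 2 or any of the N_46 arrays was left out. The 10 genes that did not pass, among them Ccl3 and Ccl4, had differences from -0.13 to 0.05.

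**Figure D2:**
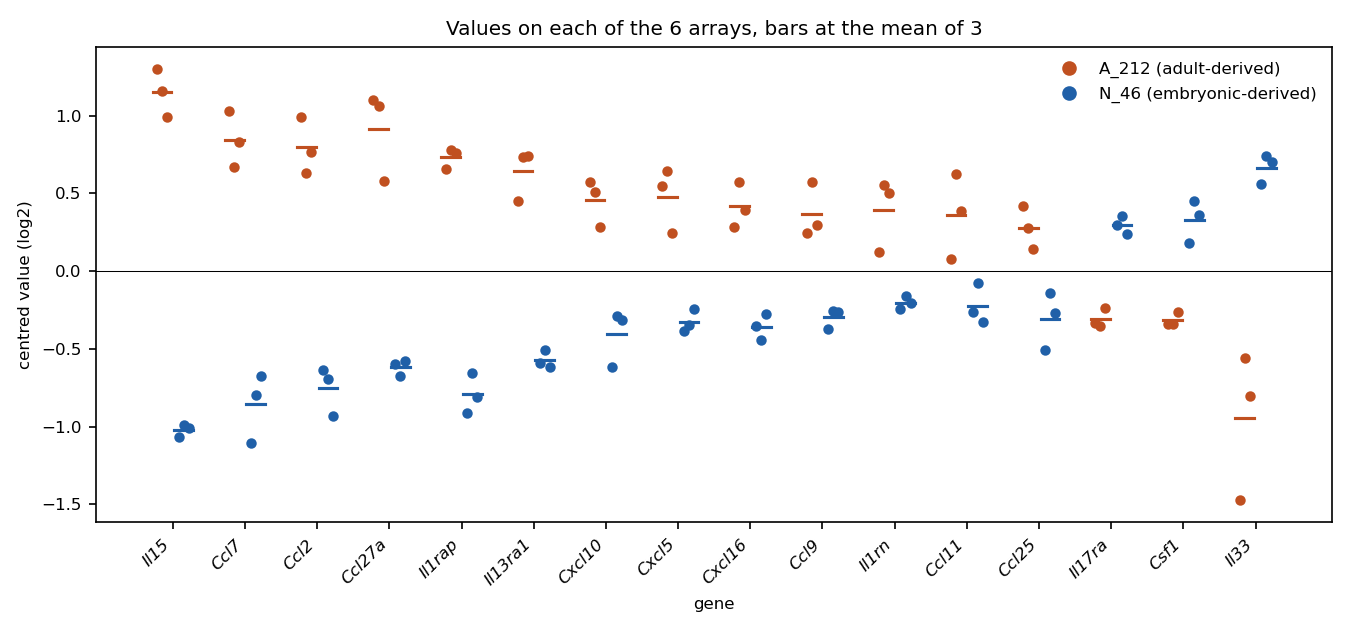
Centred log2 values on each of the 6 arrays for the 16 member genes with the largest differences that passed the test, orange for A_212 and blue for N_46, with a bar at the mean of 3 plates. No gene shown has overlapping lines. The spread between plates is widest for Il33, whose A_212 values run from -1.47 to -0.56.

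Among the CXC and CX3C chemokines, 3 of 13 genes were higher in A_212, 2 were higher in N_46 and 8 did not pass. Thus 38.5% passed, close to the 39.2% of all genes. Cxcl10, an interferon-inducible attractant of activated T cells, had 0.58, 0.51 and 0.29 in A_212 and -0.62, -0.29 and -0.31 in N_46. It differed by 0.86 ± 0.11 (1.82-fold, adjusted p = 0.000108), with no overlap. Cxcl9 and Cxcl11, which bind the same receptor, differed by -0.23 (95% interval -0.48 to 0.02) and -0.06 and did not pass. Cxcl5, an attractant of neutrophils, had 0.54, 0.64 and 0.24 in A_212 and -0.39, -0.35 and -0.24 in N_46, a difference of 0.80 ± 0.10 (1.74-fold, adjusted p = 0.000129). Cxcl16, which is made as a membrane-bound chemokine and scavenger receptor, differed by 0.77 ± 0.09 (1.71-fold, adjusted p = 6e-05). Its 2 probe sets both passed but differed in size, at 0.29 and 1.26.

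Cxcl14, a chemokine of epithelia and fibroblasts, was higher in N_46, with 0.34, 0.22 and 0.27 there and -0.17, -0.23 and -0.21 in A_212. Its difference was -0.48 ± 0.07 (adjusted p = 0.000276). Cxcl1, a neutrophil attractant and the 1 gene that passed although the lines overlapped, was singled out after its values were seen. N_46 replicate 1 stood at 0.81, against -0.01 and 0.26 on the other N_46 arrays and -0.47, 0.01 and -0.12 in A_212. The difference of -0.54 ± 0.19 (adjusted p = 0.0419) became -0.31 (0.117) without N_46 replicate 1 and -0.40 (0.142) without A_212 replicate 1, and the adjusted p was 0.0851 without A_212 replicate 3 and 0.0512 without N_46 replicate 3. Cxcl12, the homeostatic ligand of Cxcr4, differed by -0.23 ± 0.17 (adjusted p = 0.299), with probe sets at -0.50 and 0.03. N_46 replicate 1 was again the highest array, at 0.55 against -0.01 and -0.09. Without that array Cxcl12 differed by -0.033 (adjusted p = 0.863) and without A_212 replicate 1 by -0.097 (0.70). Its probe set with the largest spread, taken alone for the gene, passed at -0.50 (0.0475). The same probe set did not pass in the limma fit over all probe sets (adjusted p = 0.061), and it too was highest on N_46 replicate 1, at 0.75. Cx3cl1 (fractalkine), the neuronal ligand of the microglial receptor Cx3cr1, differed by -0.06 ± 0.07 (95% interval -0.22 to 0.11).

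None of the 15 chemokine receptors measured passed the test (limma, 2 at an unadjusted p under 0.05), where 39.2% of all genes did. Their differences ran from -0.28 for Ccr8 to 0.05 for Cxcr6, and 14 of the 15 were below 0. Values below 0 were also the more common over the whole array, at 66% of all genes that did not pass the test and 83.7% of the members that did not. Cxcr4 differed by -0.07 ± 0.07 (95% interval -0.22 to 0.09) and Ccr2, the receptor of Ccl2 and Ccl7, by -0.11 (-0.26 to 0.04). In 2 of the 6 fits that left out 1 array some receptors passed, 1 without A_212 replicate 2 and 2 without A_212 replicate 3. Outside the naming rule, the atypical receptor Ackr3, which takes up Cxcl12, was higher in A_212. It stood at 0.87, 1.52 and 1.16 there and at -1.18, -0.98 and -0.87 in N_46, and it differed by 2.20 ± 0.15 (4.58-fold, adjusted p = 9.88e-07). Cx3cr1 differed by -0.11 and did not pass.

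Chemokine genes lie in clusters, and within a cluster some neighbours passed the test together while others did not pass. The order of genes is that of RefSeq protein-coding genes. On chromosome 11, Ccl2, Ccl7 and Ccl11 lie side by side and were higher in A_212 by 1.55, 1.70 and 0.58. Next to them, Ccl12, Ccl8 and Ccl1 had differences of -0.0023, 0.05 and -0.12 and did not pass. In a second run on that chromosome, Ccl5 and Ccl9 (0.51 and 0.67) were followed by Ccl6, Ccl3 and Ccl4 (-0.08, -0.0005 and -0.12). On chromosome 5, Cxcl5 (0.80) and Cxcl1 (-0.54) went opposite ways, with Cxcl15 (0.03) and Cxcl2 (0.05) beside Cxcl1 and not past the test. Of 6 interleukin-1 family genes in a run on chromosome 2, the 5 from Il1f8 to Il1f10 did not pass and only Il1rn did. The 6 chemokine receptor genes in a run on chromosome 9 lay between -0.16 and 0.05. In all, 59 members lay in 18 such runs, with at most 4 other protein-coding genes between members, and 14 of the 59 passed the test (23.7%, where 25.2% of all members and 39.2% of all genes did).

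**Figure D3:**
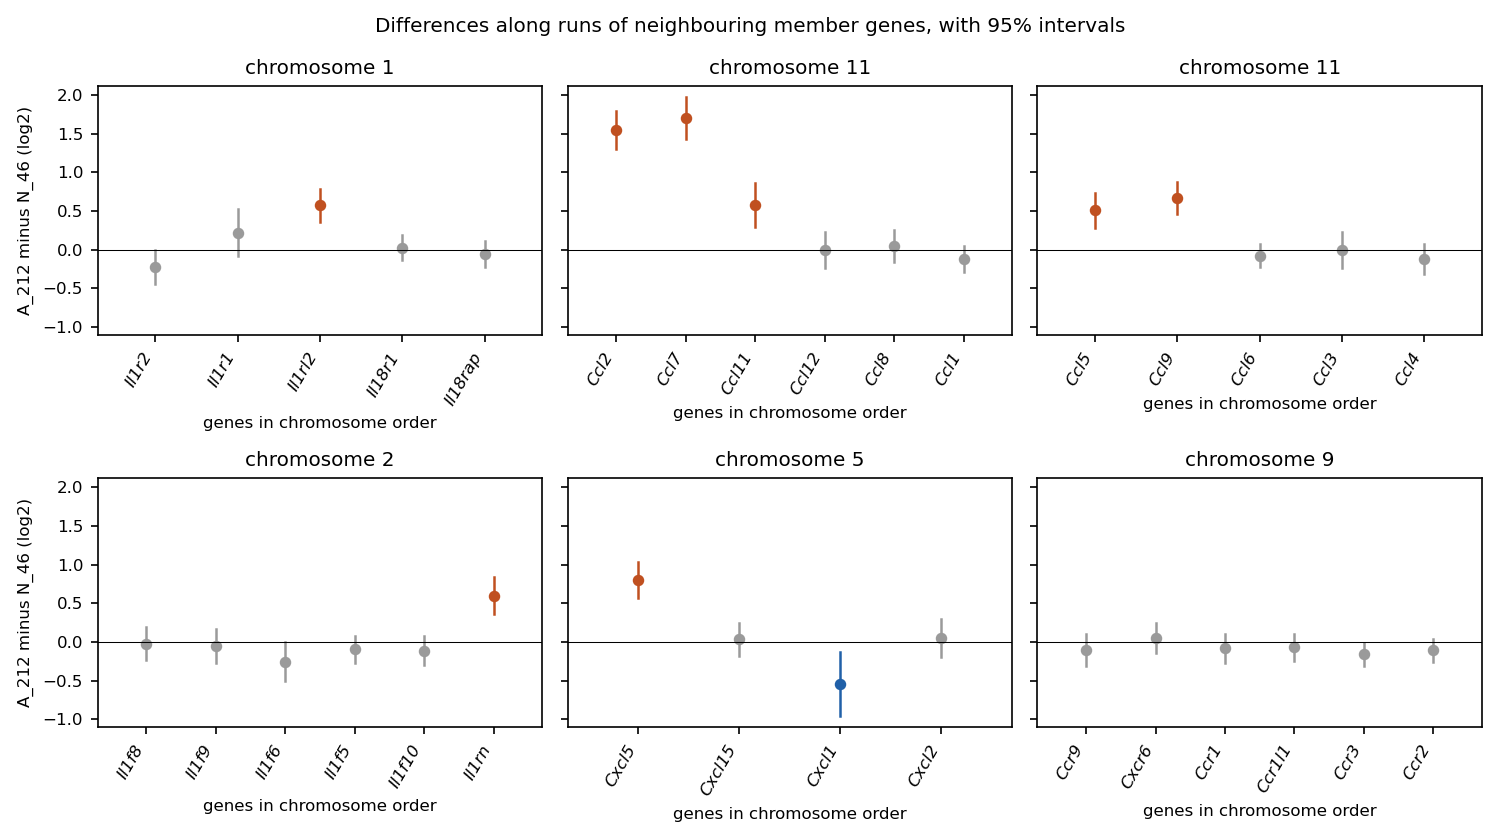
Difference between the lines (A_212 minus N_46, log2) of member genes in the 6 runs of at least 4 neighbouring members, in chromosome order, with 95% intervals. Orange points passed the test higher in A_212, the blue point passed it higher in N_46, and grey points did not pass. In both runs on chromosome 11 the genes past the test lie together at one end.

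Interleukins and their antagonists gave 3 of 35 genes higher in A_212, 4 higher in N_46 and 28 that did not pass, so that 20% passed, where 39.2% of all genes did. Il15, a growth factor of natural killer and memory T cells, showed the largest difference of all 123 genes. Its values were 1.30, 1.16 and 0.99 in A_212 and -1.07, -0.99 and -1.01 in N_46, and it differed by 2.17 ± 0.09 (4.51-fold, adjusted p = 1.96e-08). The interleukin-1 receptor antagonist Il1rn, which blocks interleukin-1, had 0.12, 0.56 and 0.50 in A_212 and -0.25, -0.16 and -0.21 in N_46. Its difference was 0.60 ± 0.11 (adjusted p = 0.00128), from probe sets at 0.16, 0.33 and 1.31. Il18, an inflammasome-activated cytokine of the interleukin-1 family, had 0.06, 0.37 and 0.43 in A_212 and -0.06, -0.24 and -0.19 in N_46, a difference of 0.45 ± 0.10 (adjusted p = 0.00538).

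Il33, a nuclear alarmin of the interleukin-1 family that stromal cells and brain glia release on damage, was higher in N_46. Its values were -1.47, -0.56 and -0.80 in A_212 and 0.56, 0.74 and 0.70 in N_46, and A_212 replicate 1 was far below the other plates. The difference was -1.61 ± 0.19 (3.05-fold, adjusted p = 5.95e-05), and it was -1.35 without that plate. Il17d, a ligand of the interleukin-17 family, differed by -0.58 ± 0.13 (adjusted p = 0.00463), with N_46 at 0.68, 0.12 and 0.20 and A_212 at -0.33, -0.22 and -0.19. Its probe sets stood at -0.92, past the probe-set test, and at -0.24, not past it. Il7, a lymphocyte survival factor, differed by -0.30 ± 0.09 (adjusted p = 0.0187), and Il2, the T cell growth factor, by -0.21 ± 0.07 (adjusted p = 0.0416). Both were near the threshold, and Il7 passed no longer without A_212 replicate 1 (0.0707), N_46 replicate 1 (0.0611) or N_46 replicate 2 (0.0525), while Il2 passed only without A_212 replicate 3 among the 6 fits that left out 1 array.

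Tnf, Il1a, Il1b, Il6 and Il10, named whatever their result, did not pass the test. Tnf had values between -0.03 and 0.03 on all 6 arrays and differed by 0.02 ± 0.07 (95% interval -0.13 to 0.17). Il1b differed by -0.07 ± 0.07 (-0.23 to 0.08), Il1a by -0.16 ± 0.09 (-0.35 to 0.03) and the anti-inflammatory Il10 by -0.04 ± 0.09 (-0.24 to 0.16). Il6, the acute-phase cytokine, had -0.10, 0.45 and 0.21 in A_212 and -0.28, -0.08 and 0.08 in N_46, so the lines overlapped. It differed by 0.28 ± 0.13 (-0.02 to 0.58, adjusted p = 0.129), by 0.42 without A_212 replicate 1, where it passed (0.0202), and by 0.15 without A_212 replicate 2 (0.428).

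Among interleukin receptors and accessory chains, 5 of 30 genes were higher in A_212, 4 were higher in N_46 and 21 did not pass, so that 30% passed, again below the 39.2% of all genes. The accessory chain Il1rap, which the receptors for interleukin-1 and Il33 share, had 0.66, 0.78 and 0.76 in A_212 and -0.91, -0.65 and -0.81 in N_46. It differed by 1.52 ± 0.08 (2.87-fold, adjusted p = 2.2e-07), and its 3 probe sets all passed, at 0.90, 1.70 and 1.97. The ligand-binding chain Il1r1 had -0.19, 0.17 and 0.30 in A_212 and -0.38, 0.01 and -0.01 in N_46. It differed by 0.22 ± 0.14 (95% interval -0.09 to 0.52, adjusted p = 0.24), and it passed without A_212 replicate 1 (0.36, adjusted p = 0.0468) but stood at 0.092 without N_46 replicate 1 (0.615). The decoy receptor Il1r2 differed by -0.23 and did not pass, and Il1rl2, the receptor of interleukin-36, was higher in A_212 by 0.58 ± 0.10 (adjusted p = 0.000775).

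Il13ra1, which binds interleukin-13 and pairs with Il4ra, had 0.45, 0.73 and 0.74 in A_212 and -0.59, -0.51 and -0.62 in N_46. The difference was 1.21 ± 0.09 (2.32-fold, adjusted p = 2.2e-06). Of its 5 probe sets, 4 passed, the lowest at 1.10 and the highest at 2.0, and the fifth stood at 0.28. Its partner Il4ra went the other way, with -0.27, -0.20 and -0.17 in A_212 and 0.27, 0.27 and 0.24 in N_46, a difference of -0.47 ± 0.07 (adjusted p = 0.000282). The chains of the interleukin-10 receptor were likewise opposed, Il10rb, which other receptors of that class share, at 0.44 ± 0.08 (adjusted p = 0.00205) and Il10ra at -0.24 ± 0.07 (0.0233). Il3ra, the interleukin-3 binding chain, was higher in A_212 by 0.45 ± 0.07 (adjusted p = 0.000694).

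Il17ra, the shared chain of interleukin-17 receptors, was higher in N_46. Its values were -0.33, -0.35 and -0.24 in A_212 and 0.29, 0.36 and 0.24 in N_46, a difference of -0.60 ± 0.07 (1.52-fold, adjusted p = 7.81e-05), with probe sets at -0.58 and -0.63. Il6ra, the interleukin-6 binding chain, was higher in N_46 by a difference of -0.28 ± 0.08 (adjusted p = 0.0213), with -0.23, -0.21 and -0.03 in A_212 and 0.22, 0.04 and 0.10 in N_46. Neither Il6ra nor Il10ra passed without A_212 replicate 1 or without N_46 replicate 1 or 3, and Il6ra also failed without A_212 replicate 2 and Il10ra without N_46 replicate 2.

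**Figure D4:**
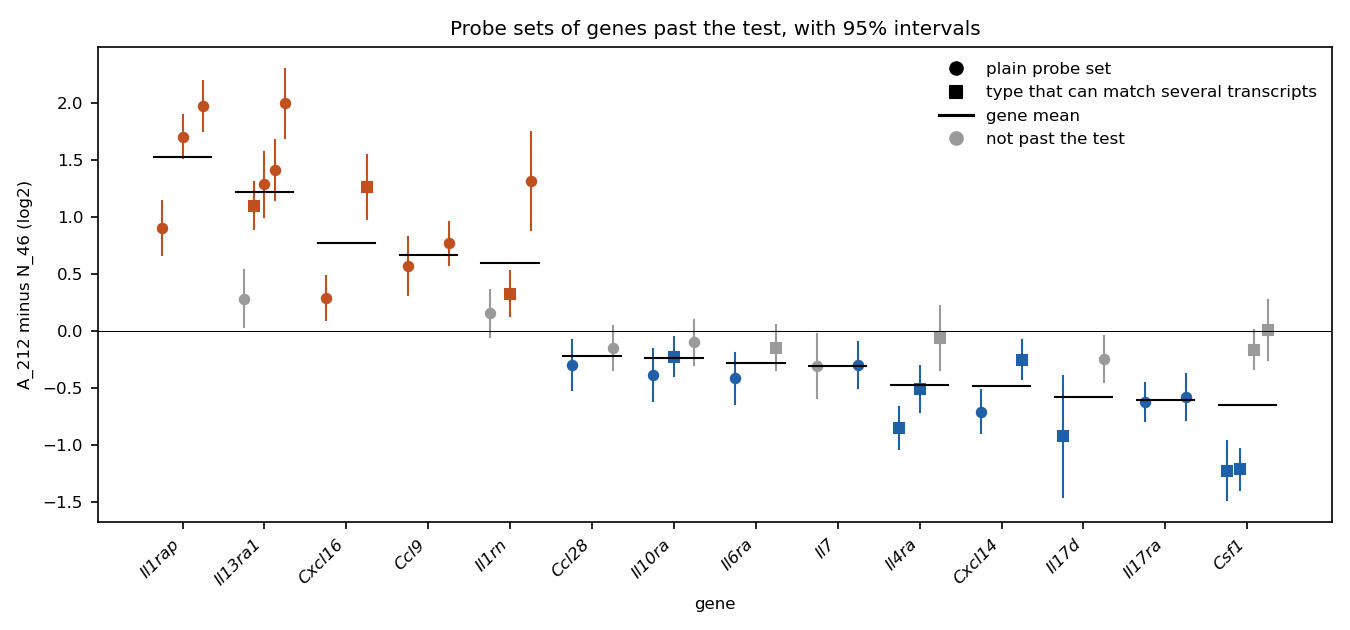
Differences of single probe sets (A_212 minus N_46, log2) for the 14 genes past the test that have several, with 95% intervals from a fit over all probe sets and a black line at the gene mean. Circles are plain probe sets and squares are types that can match several transcripts, with those not past the test in grey. Probe sets of Il1rap, Il13ra1, Cxcl16, Il1rn, Il4ra, Il17d and Csf1 lie more than 0.6 apart, and those of Csf1 form 2 separate pairs.

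Of the 8 TNF superfamily ligands, 1 was higher in A_212 and 7 did not pass (12.5% passed, where 39.2% of all genes did). Tnfsf9, the ligand of the T cell costimulator 4-1BB, had 0.26, 0.34 and 0.05 in A_212 and -0.10, -0.05 and -0.08 in N_46, and it differed by 0.29 ± 0.09 (adjusted p = 0.0194). It passed no longer without A_212 replicate 1, A_212 replicate 2 or N_46 replicate 3. The death ligand Tnfsf10 (TRAIL) differed by -0.24 (95% interval -0.51 to 0.03) and the osteoclast factor Tnfsf11 (RANKL) by -0.14 (-0.32 to 0.04).

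Among colony-stimulating factors, Csf1, the growth factor of macrophages and microglia, was higher in N_46, and Csf2, Csf3 and the receptor gene Csf1r did not pass. Thus 1 of these 4 genes passed (25%), where 39.2% of all genes did. Csf1 had -0.34, -0.34 and -0.27 in A_212 and 0.18, 0.45 and 0.36 in N_46, a difference of -0.65 ± 0.08 (1.57-fold, adjusted p = 0.00013). Its 4 probe sets disagreed. One pair stood at -1.22 and -1.21 and passed, and the other pair stood at -0.16 and 0.0073 and did not. Of 35 members with several probe sets, 9 had probe sets of both signs, and Csf1 alone among those 9 passed the test. None of the 4 is of the plain type, so each can match several transcripts, and which they matched was not tested. Csf1r differed by -0.03 ± 0.09 (95% interval -0.23 to 0.17) and Il34, its second ligand, by -0.17 (-0.44 to 0.10).

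Ligands and their receptors were set side by side for 54 pairs with both genes measured. The ligand alone passed in 24 pairs, the receptor alone in 14, both in 1 and neither in 15. The 39.2% of all genes that passed is a share of single genes and cannot be set directly against these counts of pairs. The 1 pair with both genes past the test was Il33 (-1.61) with the accessory chain Il1rap (1.52), which differed in opposite directions. Il1rap is shared with the interleukin-1 receptors, and no pair set Il33 beside a ligand-binding chain. Il15 (2.17) stood beside Il15ra at 0.03 (95% interval -0.14 to 0.20) and Il2rb at -0.13 (-0.29 to 0.03). In the reverse case, Tnfsf11 (-0.14) stood beside its receptor Tnfrsf11a (RANK) at 1.29 ± 0.09 and its decoy Tnfrsf11b (osteoprotegerin) at 1.95 ± 0.09, both higher in A_212 (adjusted p = 1.3e-06 and 6.77e-08). Il6 (0.28, not past the test) stood beside Il6ra (-0.28) and the signalling chain Il6st (1.82). The binding and signalling chains of this receptor thus had opposite signs, but Il6ra was near the threshold (adjusted p = 0.0213 in limma). Its probe set at -0.15 did not pass, and the gene failed in several fits that left out 1 array. Pairs share genes, so these counts are not independent. None of the 15 chemokine receptors among the members passed, so no pair with 1 of them could count as both.

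**Figure D5:**
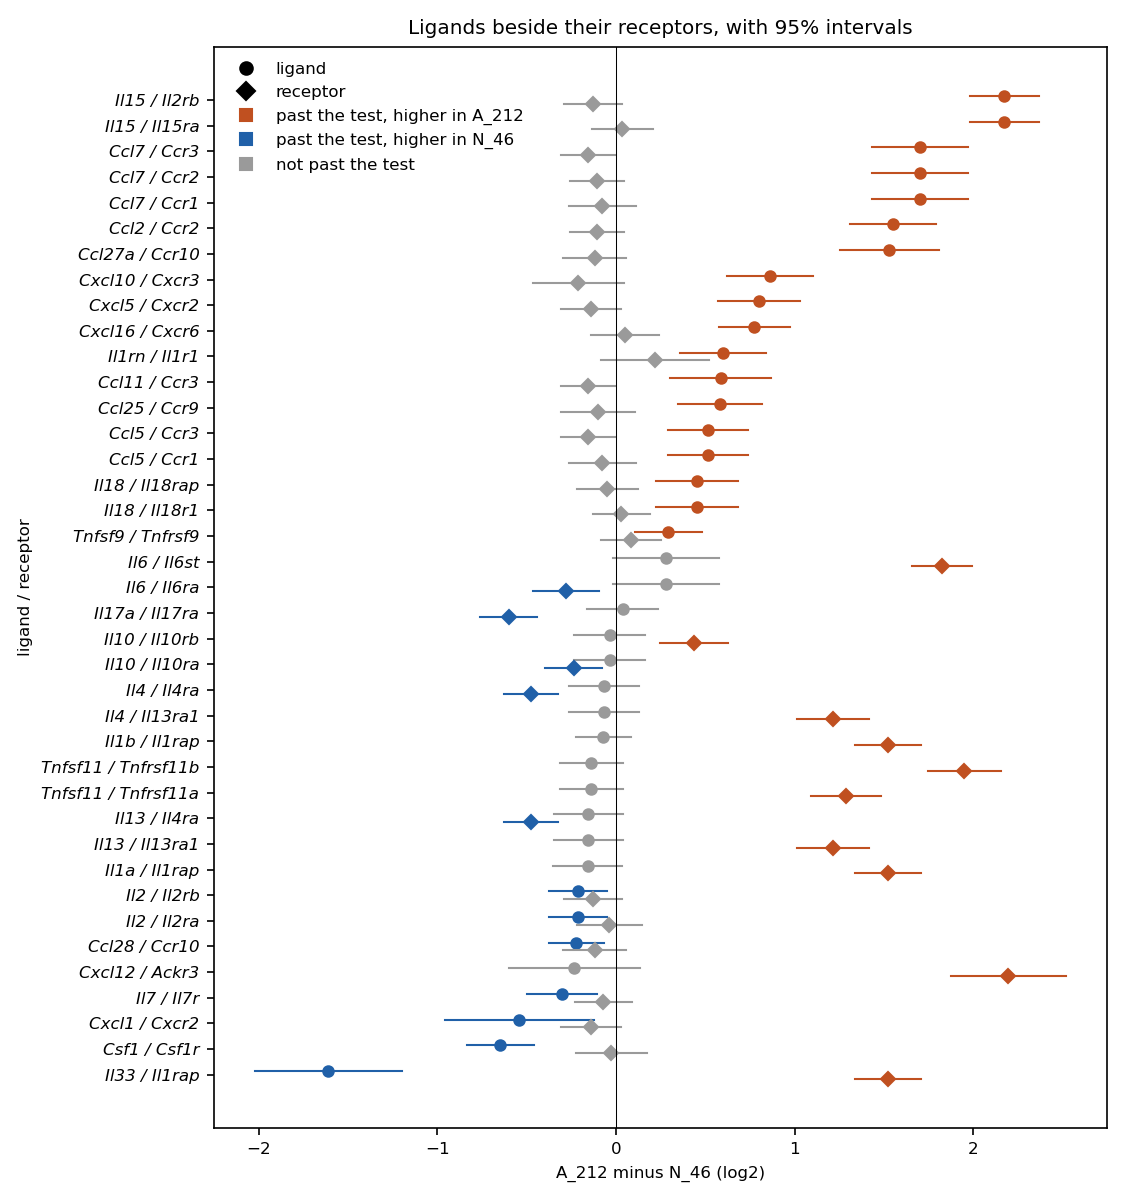
Differences (A_212 minus N_46, log2) of ligands (circles) and receptors (diamonds), with 95% intervals, for the pairs in which at least 1 gene passed the test. Orange passed higher in A_212, blue passed higher in N_46 and grey did not pass. In the upper rows the ligands lie above 0 and their receptors near 0, and Il33 with Il1rap is the 1 row with both genes past the test.

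Other genes of these pathways were read from lists chosen by function. Of 46 cytokine receptors outside the naming rule, 7 were higher in A_212, 6 were higher in N_46 and 33 did not pass (28.3% passed, where 39.2% of all genes did), with a median of -0.05 against -0.06 for all genes. The oncostatin M receptor Osmr had the largest difference, with 1.06, 1.47 and 1.47 in A_212 and -1.09, -1.10 and -1.20 in N_46, a difference of 2.46 ± 0.11 (5.52-fold, adjusted p = 4.57e-08). Tnfrsf12a, the receptor of TWEAK (-0.94), and the death receptor Tnfrsf21 (-0.60) were higher in N_46. Of 24 JAK, STAT and SOCS genes, 10 were higher in A_212, 5 were higher in N_46 and 9 did not pass (62.5% passed), with a median of 0.11. Socs2, a suppressor of growth hormone and cytokine signalling, stood at 4.03 ± 0.08 (16.4-fold) and the STAT inhibitor Pias1 at 1.04, against Socs5 at -0.96 and Socs4 at -0.67.

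Of 30 genes of interleukin-1, TNF and NF-kB signalling, 6 were higher in A_212, 7 were higher in N_46 and 17 did not pass (43.3% passed, close to the 39.2% of all genes), with a median of 0.01. The kinase Ikbke (1.15) and the NF-kB co-regulator Bcl3 (0.72) were higher in A_212, and the kinase Tbk1 (-0.38) and the kinase subunit Ikbkg (-0.34) were higher in N_46. This count of 13 fell to 8 without N_46 replicate 2. Of 24 effector genes that cytokines induce, 9 were higher in A_212, 4 were higher in N_46 and 11 did not pass (54.2% passed), with a median of 0.02. Tnfaip2 (3.10) and the matrix metalloproteinase Mmp3 (2.72) led one side, and the urokinase receptor Plaur (-1.57) and the transcription factor Cebpd (-0.94) the other.

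Markers of other cell types that make or answer cytokines were also measured, as centred values without a level, and their counts are to be read against the 39.2% of all genes that passed, 18.3% higher in A_212 and 20.9% higher in N_46. Of 24 microglia and macrophage markers, which include Csf1r, 2 were higher in A_212 (Tmem119 at 3.26 and Cd14 at 0.57), 3 were higher in N_46 and 19 did not pass (20.8% passed). The median difference of that list was -0.08, while its mean on each array lay between -0.01 and 0.12 in A_212 and between -0.03 and -0.01 in N_46, with Tmem119 in the mean. The 3 were Cd68 (-0.28), Fcgr3 (-0.24) and Trem2 (-0.24). None of 21 lymphocyte markers passed (limma, 2 at an unadjusted p under 0.05), but 5 passed without A_212 replicate 3 and 1 without N_46 replicate 2. On each array the mean of that list lay between -0.17 and 0.08 in A_212 and between 0.01 and 0.05 in N_46. Mesenchymal and fibroblast markers numbered 25, of which 14 were higher in A_212, 2 were higher in N_46 and 9 did not pass (64% passed), with a median of 0.39. The list mean lay between 0.63 and 0.81 on the A_212 arrays and between -0.79 and -0.62 on the N_46 arrays. Cdh11 (5.74) and Mmp2 (5.26) led the 14, and the 2 were Col1a1 (-0.55) and Twist2 (-0.39). The 14 were higher in the same line as Ccl2, Ccl7, Il15 and the other members higher in A_212, and the part of mesenchymal markers in those differences was not tested. Of 17 endothelial markers, 3 were higher in A_212 (Eng at 2.44 and Flt1 at 0.92 the largest) and 5 were higher in N_46 (Plvap at -1.46 and Flt4 at -0.72), so that 47.1% passed, and of 16 astrocyte markers 5 were higher in A_212 (Apoe at 1.17, Clu at 1.02) and 2 in N_46 (Slc1a3 at -2.47, Gja1 at -1.30), so that 43.8% passed. Among the neuronal markers, Stmn2 (3.09) and Eno2 (1.47) were higher in A_212 and Kif5c (-1.04) and Ncam1 (-0.39) in N_46.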

How the data were processed

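RNA of 6 plates, 3 of A_212 and 3 of N_46, was measured on 1 array each, so that 3 values per line set the precision. The deposited log2 values were made by the authors with RMA, per the submitters' processing notes, with no version given in the sources used here. All 22690 probe sets have a median of 0 over the 6 arrays within 1e-05, from a centring step that no source used here describes. Gene symbols came from the platform annotation (20380 probe sets with 1 gene, 691 with several, 1555 with none, 64 controls), and gene order and promoters from RefSeq, build GRCm38.p6, where all 123 member genes were found. Values of probe sets named for 1 gene were averaged, and 12393 genes were fitted with limma 3.58.1 (lmFit, eBayes, two-sided, Benjamini-Hochberg over all genes, no trend) in R 4.3.3. Probe sets were also fitted one by one. The fit was tested on simulated data. Figures were drawn with Python 3.11.15 and matplotlib 3.10.9.

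The members, the 10 other gene lists and the tests were chosen with earlier results of these data known. Named were all genes past the test without overlap (up to 30) and 14 inflammatory genes whatever their result. Also named were genes with probe sets of opposite sign, at least 1 of them past the probe-set test, and in each list up to 2 genes each way. Other genes were named after their values were seen, as neighbours, receptors or partners of these or as ends of a range. Replicate numbers were not used to pair the plates in the main fit. Alternatives were 2 scalings, array weights, a replicate block, plain probe sets alone, the probe set with the largest spread, robust and trended eBayes, chromosome medians taken out, treat against 1.2-fold, and each array left out in turn.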

Additional observations from a re-analysis of the deposited data

How the results depend on the processing

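Of the 41 named member genes, 21 kept their direction and their side of the threshold under all alternatives run for them (Csf1, Ccl27a, Il4ra and Il1b have no plain probe set and were not fitted with plain probe sets alone). Over all named genes and alternatives, 584 values kept both, 54 lost the call, 6 gained it and 8 changed sign. All 8 sign changes were of genes that did not pass: Csf1r (0.0029 with arrays set to the same median, 0.016 without A_212 replicate 1 and 0.027 without A_212 replicate 2, over a range from -0.12 with 1 array left out), Il10 (0.012 with chromosome medians taken out, 0.026 without A_212 replicate 1, over a range from -0.14), Cx3cl1 (0.024 for the probe set with the largest spread, 0.030 with chromosome medians taken out) and Tnf (-0.0075 with chromosome medians taken out). 

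The count of 31 members past the test was 28 to 34 with another scaling, the replicate block, robust or trended eBayes, chromosome medians taken out or the probe set with the largest spread, 42 with array weights and 27 of 108 with plain probe sets alone. The share of all genes that passed moved too. It was 36.1% to 40.1% in the first group of settings, 46.5% with array weights and 36.4% with plain probe sets alone. Probe sets taken one by one gave 44 past the test. Treat against 1.2-fold left 18, of which 13 were higher in A_212 and 5 in N_46, where it left 16.1% of all genes. The number higher in N_46 was 23 with array weights. Same-numbered plates of the lines correlated with r of -0.03, -0.01 and 0.09 in their deviations, and differently numbered plates with r from -0.10 to 0.12. Deviations of 3 arrays sum to 0 within a line, so these values depend on one another, and whether plates shared a preparation was not tested. The replicate block gave 34 calls, 30 of them shared with the fit without it. The median difference of members was -0.030 with chromosome medians taken out. Leaving out 1 array gave 26 to 44 members past the test (7 to 25 higher in N_46), 39 to 52 probe sets, and a median from -0.13 to -0.059, with A_212 replicate 3 giving the higher counts. Over all genes, 31.5% to 41.3% passed when 1 array was left out, again with the highest share without A_212 replicate 3. In those fits the counts ran from 0 to 2 for chemokine receptors, 7 to 14 for interleukin receptors, 5 to 12 for interleukins, 0 to 1 for TNF ligands, 8 to 13 for NF-kB signalling, 0 to 5 for lymphocyte and 3 to 5 for microglia markers.

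By family, treat left 5 CC chemokines, 5 interleukin receptors, 3 interleukins and 0 TNF ligands. Chemokine receptors gave 3 calls with array weights, 1 with the replicate block, 1 with trended eBayes and 2 with chromosome medians taken out. TNF ligands gave 2 with array weights, and colony-stimulating factors 0 with plain probe sets alone, where Csf1 has none. For the other lists, treat left 4 endothelial, 4 NF-kB, 9 JAK-STAT, 2 microglia, 5 neuronal and 7 other receptor genes. Plain probe sets alone gave 4 astrocyte and 5 neuronal genes, and lymphocyte markers gave 2 with array weights, 1 with the largest-spread probe set and 1 with trended eBayes. The cause of these shifts was not tested, except that treat asks for a larger difference and plain probe sets cover fewer genes. Signal over background cannot be read from centred values, so genes near background are not marked as such.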
